A study of Mus musculus with 9 samples.

Results

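The 3 ovary samples labelled as granulosa cell tumour of mutant mice were examined on their own, out of 9 samples in the series. They were chosen by the disease state in the labels and were not set against the wild-type or hyperplasia samples. All 3 carried the genotype FOXL2 WT/C134W, that is, 1 unchanged and 1 mutated copy of Foxl2, and no other allele or agent is named in the labels. Age, strain and the way the mutation was introduced are not given in the sources used here. RNA was sequenced from dissected ovaries as a whole, so the libraries hold tumour cells together with whatever stroma, vessels, blood and surface epithelium remained. Whether each sample is an animal of its own is not stated in the labels, so the spread between samples may be in part technical. Tumour 3 shares the stem of its title with 1 hyperplasia sample. Every gene had a TPM value, a transcript level corrected for gene length that sums to the same total in each library. Genes were ranked by the mean TPM of the 3 libraries. Where 3 values follow a gene, they belong to tumours 1, 2 and 3 in that order.

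The libraries held 15163347, 12886802 and 11661876 expected counts on 55536 genes. A gene of 1 kb needs 0.299, 0.277 and 0.405 TPM to reach 3 counts, the limit that a count of 0 allows. Such limits cover counting error only. Tumour 2 stood apart from the other two. Across the 9194 genes with a mean of at least 10 TPM, Pearson's r of log2(TPM + 1) was 0.90 between tumours 1 and 3, 0.79 between 1 and 2, and 0.79 between 2 and 3, with genes, not independent replicates, as the points. In tumour 2 the median gene lay 0.55 lower in log2 TPM than the mean of tumours 1 and 3, and the gap grew with gene length. On other scales the median gene lay lower by 0.29 with TPM scaled by TMM (trimmed mean of M-values) factors and by 0.23 with DESeq2 size factors. It lay lower by 0.27 in CPM, which is not divided by length, and by 0.13 in FPKM. In TPM the median was 0.15 above the mean of tumours 1 and 3 (log2 of the TPM ratio) for genes under 1 kb. It lay 0.35, 0.68 and 1.02 below that mean for genes of 1 to 2 kb, 2 to 4 kb and over 4 kb. The part that this length trend has in the differences described below was not tested.

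Granulosa cells are the somatic cells that line the ovarian follicle and nourish the oocyte. They respond to follicle-stimulating hormone, secrete inhibin and activin, convert androgens to oestrogens and, after ovulation, turn into luteal cells that make progesterone. Foxl2 is the forkhead transcription factor that keeps them female, and its loss in the adult mouse ovary lets genes of the Sertoli cell, their counterpart in the testis, come on. The C134W change is the hallmark of adult-type granulosa cell tumours in women.

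Foxl2 (9: 98955288 to 98958543, plus strand, GRCm38) was read at 132, 70.4 and 206 TPM, a mean of 136 ± 67.8 TPM (SD, n = 3), from 4047, 2327 and 4618 counts. It ranked 1001 among all genes and 13 among the members of the transcription factor gene families examined. Its level was highest in tumour 3 and lowest in tumour 2, a ratio of 2.92. These counts do not separate the mutated from the unchanged copy. In bulk tissue, fewer cells of a type and less RNA per cell cannot be told apart, here and in every level that follows.

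In all 3 tumours 12526 genes reached 1 TPM, 7158 reached 10 TPM, 1025 reached 100 TPM and 120 reached 1000 TPM. Of 22028 protein-coding genes, 11556 (52.5%) reached 1 TPM in all 3. The transcript pool was led by a small number of genes. The 10 most abundant took 11.9%, 12.04% and 10.03% of TPM, or 11.3% ± 1.13 (SD, n = 3), and the 100 most abundant took 33.5%, 41.4% and 32.1%, or 35.7% ± 5.04 (SD, n = 3). Short transcripts weigh more in TPM than in reads, and the 100 most abundant genes held 14.7%, 19.98% and 13.1% of the counts.

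Cytosolic ribosomal protein genes, 91 in number, formed the largest of the gene classes examined. They took 16.9%, 25.8% and 16.4% of TPM, and tumour 2 was above the other two. By counts, which do not weigh short transcripts up, the shares were 5.48%, 9.95% and 4.72%. The 37 genes of the mitochondrial genome took 7.66%, 7.03% and 9.12% of TPM. By counts they took 3.94%, 4.18% and 3.84%, an order of the tumours unlike that in TPM. Reads of some of these genes cannot be told apart from those of copies on chromosome 1, described below. With these copies added, the shares were 13.7%, 13.05% and 12.3% of TPM and 5.73%, 6.37% and 4.61% of counts. Tumour 3 was then the lowest in both units. Nuclear genes of the respiratory chain took 2.08%, 2.61% and 2.08% of TPM, and translation factors 2.31%, 2.27% and 2.24%. In TPM the translation factors differed least of these classes, with a ratio of highest to lowest of 1.03. By counts the translation factors took 2.47%, 2.92% and 2.37%, in proportion further apart than the mitochondrial genes. Histone genes took 0.303%, 0.325% and 0.310% of TPM. Collagen genes took 0.287%, 0.103% and 0.289%, and keratin genes took 0.129%, 0.00142% and 0.0462%. Tumour 2 was thus the lowest for both of these structural families. Haemoglobin genes, which mark red blood cells, took 0.0316%, 0.178% and 0.0109%, with the highest share in tumour 2.

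**Figure D1:**
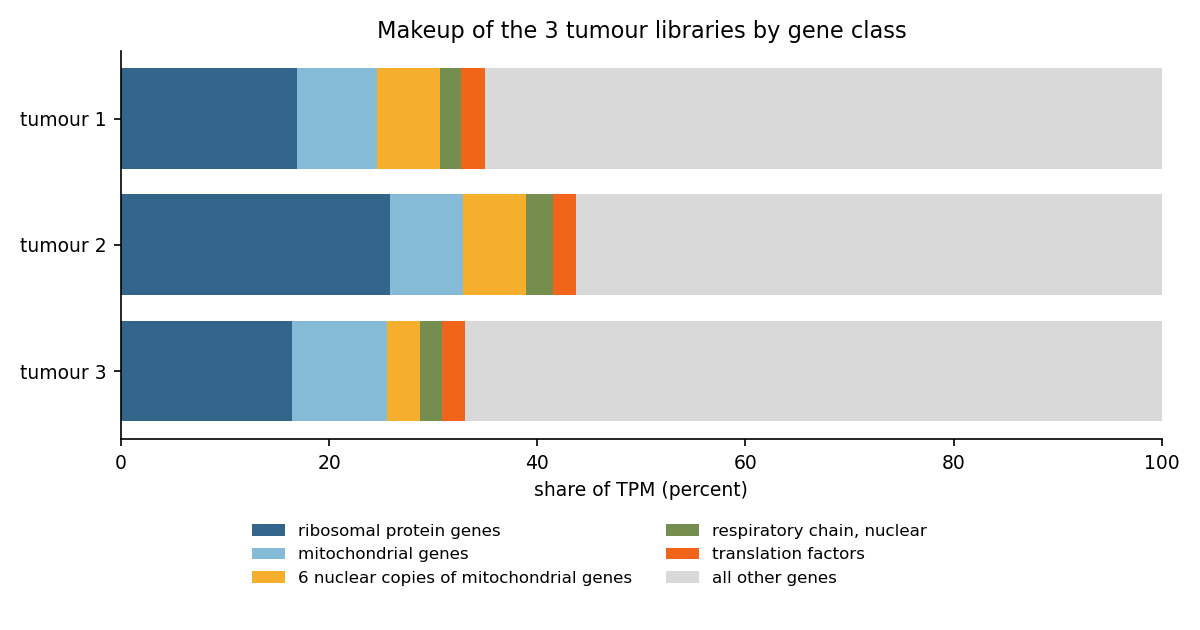
Share of TPM (percent, horizontal axis) held by 5 gene classes and by all other genes in each of the 3 tumour libraries, drawn as stacked bars from 0 to 100. The ribosomal protein bar is longest in tumour 2 (25.8%), and the bar of nuclear copies of mitochondrial genes is shortest in tumour 3 (3.19%). Reads of these copies cannot be told apart by sequence from those of their mitochondrial genes, so the 2 bars are read as a sum. Together they take 13.7%, 13.05% and 12.3% in tumours 1, 2 and 3.

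The 30 most abundant genes were 7 mitochondrial genes, 6 unprocessed pseudogenes on chromosome 1, 15 ribosomal protein genes, the translation elongation factor Eef1a1 and Tpt1. The first place by TPM went to mt-Atp8, a small subunit of ATP synthase, at 20225, 18359 and 17555 TPM. Its effective length, the number of positions at which a fragment can start, was 42.6 bases in tumour 1, and by counts it ranked 270. mt-Co1, the catalytic subunit of cytochrome c oxidase, followed at 21405, 17142 and 16915 TPM and ranked 1 by counts. mt-Cytb, of the cytochrome bc1 complex, was at 7745, 5919.7 and 7263 TPM, with a ratio of 1.31. Eef1a1, which carries aminoacyl-tRNA to the ribosome, was at 10392, 10272 and 8925 TPM, a mean of 9863 ± 815 TPM (SD, n = 3), with a ratio of 1.16.

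The 6 chromosome 1 pseudogenes form a run between 24612407 and 24616197 (minus strand, GRCm38), a nuclear copy of part of the mitochondrial genome. Aligned to the mitochondrial genes, 5 of them held no mismatch, and the sixth, Gm29216, held 1 mismatch to mt-Co1 in 483 aligned bases. Reads from such pairs cannot be told apart by sequence. Gm28661 and mt-Co2, a subunit of cytochrome c oxidase, matched over 681 bases with no mismatch. The first 60 bases of each coding stretch are shown because they are identical and carry no capital, which would mark a mismatch. The transcripts come from GENCODE M21 on GRCm38, mt-Co2 at M: 7013 to 7696 on the plus strand and Gm28661 at chromosome 1: 24614885 to 24615565 on the minus strand.
mt-Co2: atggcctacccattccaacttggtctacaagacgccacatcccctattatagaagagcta
Gm28661: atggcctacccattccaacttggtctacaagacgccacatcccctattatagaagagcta

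The levels of such pairs, all named because their copies are among the 30 genes, were split unevenly between the libraries. Gm28661 was at 17453, 9876 and 0.35 TPM and mt-Co2 at 2756, 5910.3 and 17906 TPM, so that the copy took 86.4%, 62.6% and 0.00195% of their sum. Summed, the pair stood at 20210 TPM, 15786 TPM and 17907 TPM, with a ratio of highest to lowest of 1.28. The summed levels of mt-Atp6 and Gm10925 were 13503, 13219.8 and 14635 TPM, a ratio of 1.11. For mt-Co3 and Gm28437 the sums were 16472, 23881 and 15555 TPM, and for mt-Nd3 and Gm28438 3526, 7743 and 4999 TPM, the most uneven of the 6 sums with a ratio of 2.20. Mitochondrial genes and their 6 copies together took 13.7%, 13.05% and 12.3% of TPM. The values of Gm28661 and mt-Co2 are therefore read only as a sum.

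Ribosomal proteins are encoded by mRNAs that begin with a cytosine followed by an unbroken run of pyrimidines (C or T in the gene), the terminal oligopyrimidine tract through which cells adjust their translation. The starts of the 6 genes with such a tract among the 50 most abundant nuclear protein-coding genes are shown, since these transcripts head the profile. They were chosen after the values were seen. Each stretch runs from 10 bases before to 20 bases from the annotated start, from RefSeq on GRCm38.p6, with the tract at the start in capitals.
Rps27: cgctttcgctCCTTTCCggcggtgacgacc
Rps21: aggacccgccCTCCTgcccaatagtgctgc
Rps18: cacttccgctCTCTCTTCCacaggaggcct
Rps10: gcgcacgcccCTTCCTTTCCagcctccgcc
Rps15a: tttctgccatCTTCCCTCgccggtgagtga
Rps6: gaagtcgggcCTCTTTTTCgtgacgcctcc

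These stretches lie, on GRCm38.p6, for Rps27 at chr3:90213629-90213658 (minus strand), Rps21 at chr2:180257369-180257398 (plus strand), Rps18 at chr17:33955646-33955675 (minus strand), Rps10 at chr17:27635225-27635254 (minus strand), Rps15a at chr7:118116128-118116157 (minus strand) and Rps6 at chr4:86857348-86857377 (minus strand). A C followed by 4 bases that are each C or T, read on the gene's strand exactly at the annotated start, was found in 6 of the 36 of those 50 genes that have an entry (16.7%), in 14 of 64 ribosomal protein genes (21.9%) and in 2.51% of all 32851 promoters in the table. Among the protein-coding genes at 1 TPM or more in all 3 tumours the share was 2.95%. A gene counted as a match when any of its promoter entries matched, while the 2.51% is a share of entries, so these units differ. A match is a description of the letters at an annotated start and is not a test of how the transcript is used. Rps27 was read at 5451, 8831 and 6486 TPM, Rps21 at 2794, 4401 and 2849 TPM and Rps18 at 2185, 3920.3 and 3243 TPM. In each of these genes tumour 2 was the highest, as it was for the ribosomal class as a whole. Rplp1, the acidic stalk protein of the large subunit, was the highest of the class at 6726, 12016 and 4497 TPM. Rps28 differed least among the ribosomal genes of the 30, with a ratio of 1.16.

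After the values were seen, protein-coding genes outside the mitochondrial, ribosomal protein, respiratory chain and translation factor classes were ranked on their own to reach the transcripts that tell cell types apart. Tpt1, a translationally controlled protein found in most cells, came first at 5147, 6925 and 4945 TPM. Inha, the alpha subunit shared by all inhibins and a hallmark product of granulosa cells, came second. It was read at 2806, 2096 and 3885 TPM, a mean of 2929 ± 901 TPM (SD, n = 3), which placed it at rank 35 of all genes and 16 by counts. Inha lies at 1: 75507077 to 75510366 (GRCm38, plus strand). The 3 values differed by a ratio of 1.85, with tumour 3 the highest and tumour 2 the lowest.

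Among the others of the first 40 were the following. Ftl1 and Fth1, the light and heavy chains of ferritin, were at 2639, 3110.1 and 2027 TPM and at 1958, 2294 and 1933 TPM. Tsc22d1, a leucine zipper regulator, was at 1650.2, 2905 and 3065 TPM, lowest in tumour 1. Clu, the secreted chaperone clusterin that Sertoli cells also make in quantity, was at 2767, 1387 and 2858 TPM. Apoe, a lipid-carrying apolipoprotein, stood at 1362, 3804 and 1525 TPM and was highest in tumour 2. Hsd3b1, the hydroxysteroid dehydrogenase that turns pregnenolone into progesterone, was at 2593, 637 and 3043 TPM, a mean of 2091 ± 1279 TPM (SD, n = 3). It was the highest of the steroid synthesis list and one of only 2 variable genes among the first 40 of this ranking, with a ratio of 4.78 that came from a low value in tumour 2. Akr1cl, an aldo-keto reductase, was at 1787, 1693 and 2225 TPM, and Cpe, the carboxypeptidase that trims peptide hormones, at 2059.9, 792 and 2278 TPM. Sparc, a matrix glycoprotein, was at 1147, 1201 and 1181 TPM, and Rarres2, the secreted signal chemerin, at 930.3, 1114 and 1593 TPM. Cela1, a secreted elastase, was the other variable gene and is described with the genes that were high in tumour 2. Of these 40 genes 13 (32.5%) were steady as defined below, against 12.6% of all genes with a mean of 10 TPM. With TMM scaling 8 (20%) were steady, against 16.4% of all genes, and with DESeq2 scaling 7 (17.5%), against 17.0%. Hsd3b1 was not variable under either scaling, with ratios of 3.997 and 3.78.

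**Figure D2:**
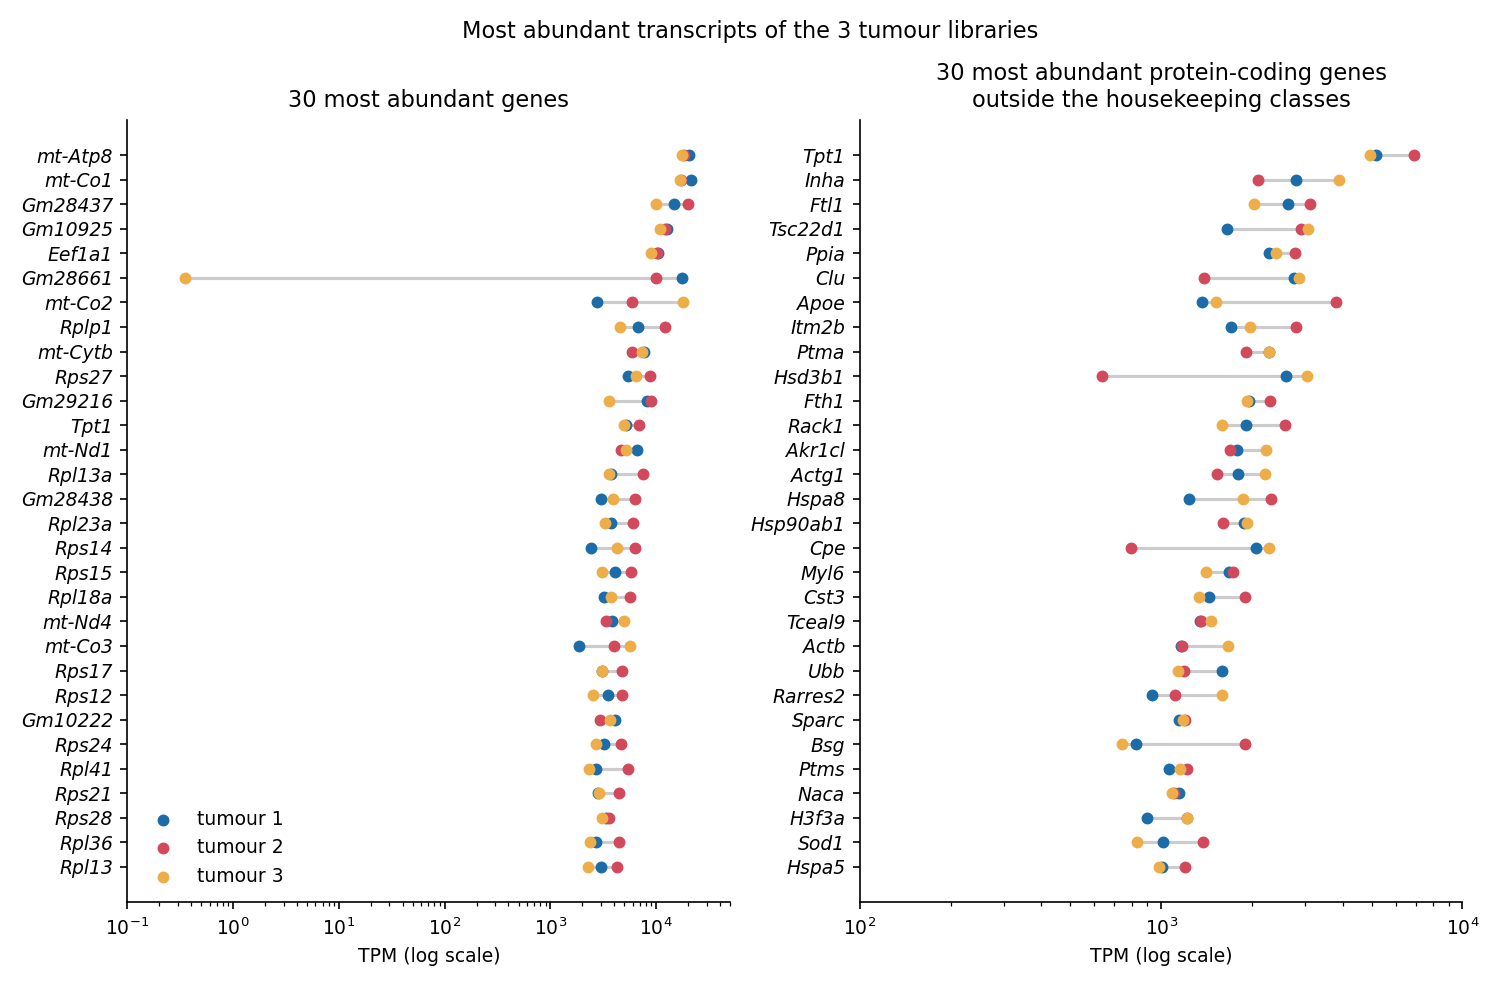
TPM (log scale, horizontal axes) of the 30 most abundant genes of all and of the 30 most abundant protein-coding genes outside the mitochondrial, ribosomal protein, respiratory chain and translation factor classes, with a point per tumour and a grey line from lowest to highest. Inha is second on the right with values between 2096 and 3885 TPM. Gm28661 on the left spans the widest range, but its reads cannot be told apart from those of mt-Co2, and the values are read only as a sum.

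Markers of granulosa cells were read next, from lists chosen with earlier results of these data known. Of 16 granulosa transcription factors, 14 reached 1 TPM in all 3 tumours, and none was under 1 TPM in all of them. That level was also reached in all 3 by 16 of 17 theca genes, 23 of 24 stromal genes and 52.5% of all protein-coding genes. Presence at 1 TPM therefore cannot decide whether the label of a granulosa cell tumour holds. Gata4, which partners with steroidogenic factors on gonadal promoters, was at 178, 112 and 173 TPM. Nr5a1, the nuclear receptor known as steroidogenic factor, was at 137, 82.9 and 147 TPM, and its relative Nr5a2, needed for ovulation, at 198, 39.5 and 172 TPM. Foxo1, a forkhead factor of growing follicles, was at 104, 28.9 and 142 TPM. Tumour 2 was the lowest for each of these 4 genes, as for 14 of the 16 listed. The median gene lay 0.55 lower in log2 TPM there. The share of all genes that were lowest or highest in tumour 2 was not counted. Counts of either kind, here and below, are therefore not read as particular to a list. Wt1, which marks early granulosa cells and the ovarian surface, was at 304, 1.35 and 149 TPM, and Emx2, a homeobox gene of the embryonic gonad, at 83.7, 0.27 and 40.4 TPM. Tumour 2 was near the counting limit for Emx2 and far below the others for Wt1. Lhx9 at 39.2, 4.69 and 30.2 TPM and Zfpm2, the Gata4 cofactor, at 16.0, 1.12 and 18.3 TPM were low in tumour 2 as well. Gata6 was at 66.6, 25.5 and 108 TPM and Runx1 at 8.29, 1.45 and 9.72 TPM, again lowest in tumour 2. Pgr, the progesterone receptor induced at ovulation, was at 0.46, 0 and 1.18 TPM.

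For steady and variable genes the measure was the ratio of the highest to the lowest of the 3 values after 0.1 TPM was added to each. Genes with a mean of at least 10 TPM were called steady when the highest was at most 25% above the lowest and variable at a ratio of at least 4. These calls are descriptions of 3 libraries and not tests. Of 9194 genes, 1155 (12.6%) were steady and 990 (10.8%) variable, and 730 (7.94%) were variable with tumour 2 as the low value, meaning that tumour 2 was the lowest and on the log scale lay further from the middle value than the middle value from the highest. Of the 13 granulosa transcription factors with a mean of 10 TPM, 7 were variable and none was steady, and all 7 were low in tumour 2. Between tumours 1 and 3 alone, no member differed by a ratio of 4. With TPM scaled by TMM factors the count was 6 and with DESeq2 size factors 5.

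Among the hormones and growth factors of granulosa cells, Inha was followed by genes that changed places between the tumours. Inhbb, the beta B subunit of inhibin and activin, was at 17.9, 249.8 and 61.5 TPM, highest in tumour 2. Inhba, the beta A subunit, was at 5.93, 20.1 and 41.8 TPM, highest in tumour 3. Fst, the secreted protein follistatin that binds activin, was at 28.8, 184 and 99.3 TPM and, like both beta subunits, lowest in tumour 1. Kitl, the ligand through which granulosa cells act on oocytes, was at 87.7, 29.9 and 140.4 TPM, and Bmp2, a growth factor of the BMP family, at 74.95, 3.53 and 40.7 TPM. Igf1, an insulin-like growth factor, was at 25.6, 25.4 and 23.9 TPM, steady in TPM and under neither alternative scaling. Amh, anti-Müllerian hormone of small growing follicles, was at 7.93, 0.06 and 43.8 TPM, from 118, 1 and 469 counts. Of the 9 members with a mean of 10 TPM, 6 were variable, 3 of them low in tumour 2 and 1 high in it. With either scaling 5 were variable and 2 low in tumour 2, Kitl being the call lost.

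The receptor list had 14 of 15 members at 1 TPM or more in all 3 tumours. Amhr2, the receptor of anti-Müllerian hormone, led it at 421, 124.3 and 374 TPM, a mean of 306 ± 159 TPM (SD, n = 3). The BMP receptors Bmpr2 and Bmpr1b were at 62.2, 42.5 and 76.6 TPM and at 82.1, 36.1 and 62.2 TPM, and Tgfbr3, a co-receptor that binds inhibin, at 48.1, 20.9 and 61.4 TPM. Fshr, the receptor of follicle-stimulating hormone, was at 56.7, 0 and 60.8 TPM. In tumour 2 no count fell on Fshr, which allows up to 0.128 TPM, while tumours 1 and 3 held 1235 and 961 counts. Lhcgr, the receptor of luteinising hormone, was at 38.9, 48.6 and 27.9 TPM and highest in tumour 2. Esr1 at 15.8, 3.36 and 24.5 TPM and Prlr, the prolactin receptor, at 10.9, 4.28 and 22.3 TPM were the other two variable members, and 3 of the 13 with a mean of 10 TPM were variable, all low in tumour 2.

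In the list of granulosa enzymes and other markers, 16 of 18 genes reached 1 TPM in all 3 tumours. Serpine2, a protease inhibitor secreted into the follicle, was at 744, 1156 and 872 TPM, and Gja1, the connexin of granulosa gap junctions, at 699, 505 and 1257 TPM. Bex4 was at 706, 972 and 589.5 TPM. Cyp19a1, the aromatase that makes oestrogens, was at 1.45, 35.0 and 23.8 TPM, nearly at the bottom in tumour 1. Hsd17b1, which turns oestrone into oestradiol, was at 82.9, 43.8 and 264 TPM and highest in tumour 3. Nap1l5 at 6.36, 119 and 72.9 TPM and Slc18a2, a monoamine transporter, at 7.77, 87.3 and 25.1 TPM were highest in tumour 2 and lowest in tumour 1. Mro at 62.7, 0.66 and 38.1 TPM, Aard at 18.2, 1.05 and 20.9 TPM, Cited2 at 176, 21.7 and 144 TPM and Nt5e at 2.75, 0.02 and 1.18 TPM were lowest in tumour 2. Of 16 members with a mean of 10 TPM, 8 were variable, 4 of them low in tumour 2 and 1 high in it.

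**Figure D3:**
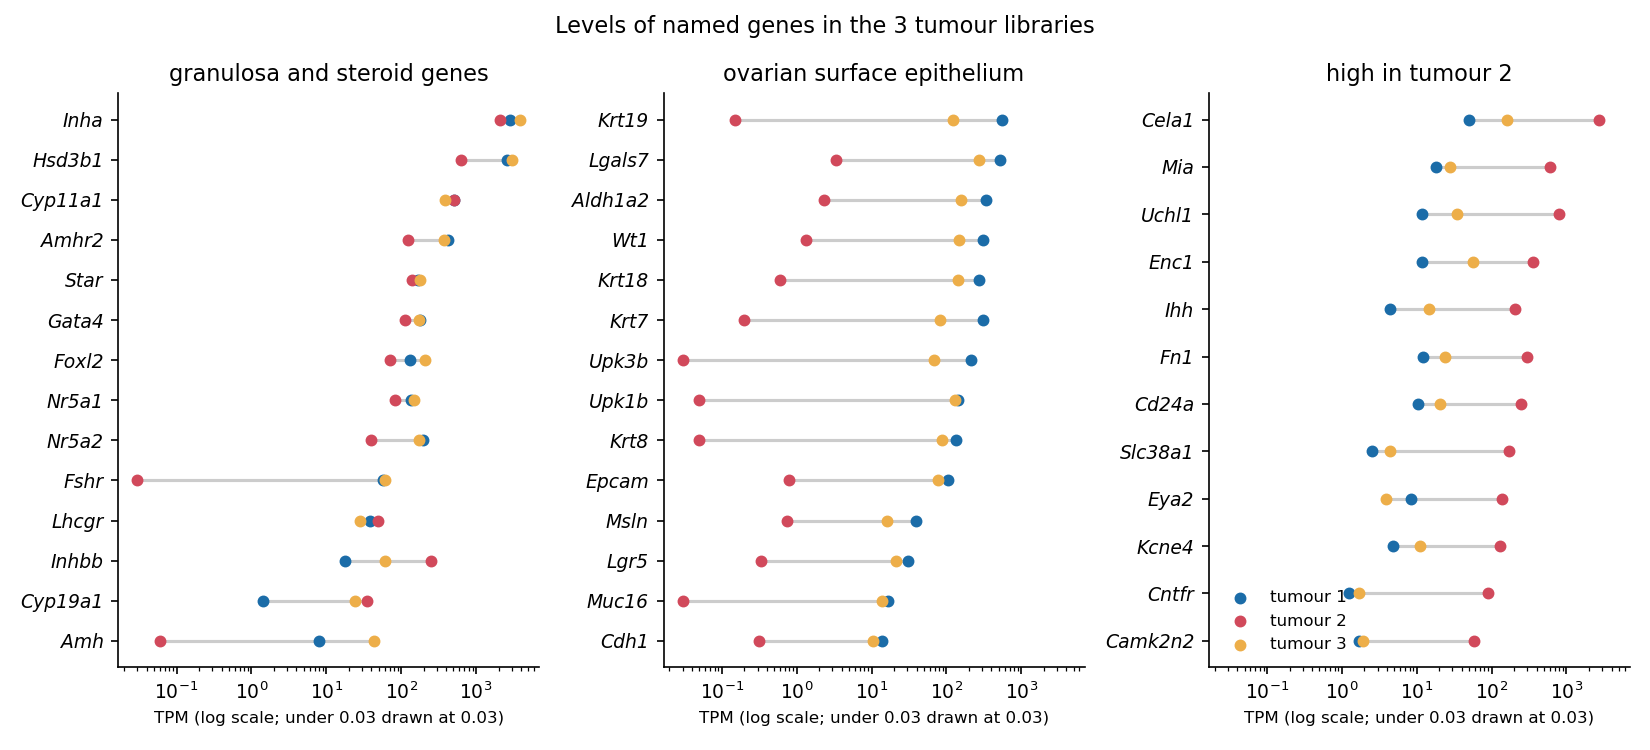
TPM (log scale, horizontal axes) of granulosa and steroid genes, genes of the ovarian surface epithelium and genes that were high in tumour 2, with a point per tumour and a grey line from lowest to highest. Cyp11a1 and Star stay closest together, every surface epithelium gene shown has its lowest point in tumour 2, and Fshr has no counts there.

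Steroid hormone synthesis starts when Star brings cholesterol into the mitochondrion, where Cyp11a1 cuts its side chain. Cyp11a1 was at 502, 514 and 389 TPM, a mean of 468 ± 68.7 TPM (SD, n = 3), and Star at 168, 139 and 178 TPM, a mean of 162 ± 20.4 TPM (SD, n = 3). The values for both genes lay close together, with ratios of 1.32 and 1.28. Fdxr, the reductase that feeds electrons to Cyp11a1, was at 111, 122 and 114 TPM, steady in TPM only, and was named after its values were seen. Its partner Fdx1 was at 351, 538 and 196 TPM and Scarb1, the lipoprotein receptor that takes up cholesterol esters, at 228, 614 and 259 TPM, and tumour 2 was the highest for both. Cyp17a1, the theca enzyme that makes androgens, was at 107, 155 and 30.2 TPM and lowest in tumour 3. Akr1c18, which inactivates progesterone, was at 11.3, 0 and 47.4 TPM, with no counts in tumour 2. Hsd3b6, a relative of Hsd3b1, was at 6.43, 0.41 and 15.5 TPM, and reads of such near relatives may be shared between them. Cyp21a1 and Hsd3b2 were at 0 in all 3 tumours and Cyp11b1, an enzyme of the adrenal cortex, at 0, 0 and 0.05 TPM. Of 18 measured members 12 reached 1 TPM in all 3, and 5 of the 12 with a mean of 10 TPM were variable, 2 of them low in tumour 2. With either alternative scaling 4 were variable and 1 low in tumour 2.

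Genes of cholesterol synthesis and uptake were present as a group, with 20 of 21 at 1 TPM or more in all 3 tumours. Soat1, which stores cholesterol as esters, was the highest at 635, 302 and 702 TPM. Sc5d, a late step of synthesis, was at 196, 36.7 and 235 TPM and Hmgcs1, an early one, at 63.6, 24.3 and 118 TPM, and both were low in tumour 2. Npc2, a lysosomal cholesterol carrier, was at 92.2, 98.2 and 93.0 TPM, with a ratio of 1.07. Of 15 members with a mean of 10 TPM, 2 were steady and 2 variable, and 1 was variable with DESeq2 scaling, where Hmgcs1 had a ratio of 3.81.

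Sertoli cell and testis genes were measured for 17 members, of which 11 reached 1 TPM in all 3 tumours. Clu led the list. Cst12, a cystatin of the reproductive tract, was at 722, 2.40 and 1861 TPM, a ratio of 744 with tumour 2 the lowest, and Cst9, another cystatin, at 15.9, 0 and 21.9 TPM. Defb19, a defensin, was at 58.6, 35.3 and 173 TPM, highest in tumour 3. Tjp1, a tight junction scaffold, was at 65.7, 27.0 and 71.7 TPM, Fgfr2, a fibroblast growth factor receptor, at 35.6, 58.3 and 62.4 TPM, and Ptgds, a prostaglandin synthase, at 21.96, 43.2 and 29.7 TPM. Gdnf, a growth factor that Sertoli cells secrete, was at 5.09, 40.1 and 10.7 TPM and highest in tumour 2. Sry, the testis-determining gene, was at 0 in all 3. Dmrt1, which keeps Sertoli cells male, was at 1.3, 0 and 0.14 TPM, and Fgf9 at 1.07, 0.09 and 1.12 TPM. Sox9, which directs Sertoli cell fate, was at 7.15, 9.60 and 4.04 TPM, and its relative Sox8 at 1.62, 0.99 and 1.39 TPM, both named after their values were seen. Sox9 was thus read in every tumour, and Dmrt1 above 1 TPM in tumour 1 alone.

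Theca cells, the androgen-making cells around the follicle, share several markers with other stroma. Of 17 theca genes 16 reached 1 TPM in all 3 tumours. Aldh1a1, a retinal dehydrogenase, led at 998, 735 and 650.1 TPM. Tcf21, a stromal transcription factor, was at 214, 31.4 and 195 TPM, Pdgfra, a growth factor receptor of stroma, at 201, 55.7 and 237 TPM, and Nr2f2, a nuclear receptor of stroma, at 87.2, 15.4 and 84.2 TPM, each lowest in tumour 2. Ptch1, the hedgehog receptor, was at 37.6, 15.5 and 76.7 TPM, and Enpep, an aminopeptidase, at 28.0, 7.89 and 42.1 TPM. Insl3, the peptide hormone made by theca cells, was at 3.81, 23.6 and 2.26 TPM and highest in tumour 2. Of 14 members with a mean of 10 TPM, 7 were variable and 6 of them low in tumour 2, or 4 with either alternative scaling. The luteal list had 10 of 12 members at 1 TPM or more in all 3, led by Cyp11a1 and Scarb1. Sfrp4, a secreted Wnt antagonist, was at 80.4, 11.9 and 73.7 TPM.

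Oocyte genes were mostly under the threshold. Of 25 measured members, 20 were under 1 TPM in all 3 tumours and 9 had no count in any. Among all 22028 protein-coding genes 8567 were under 1 TPM in all 3, which stands beside each such count below as well. Those 9 were Bcl2l10, Figla, Lhx8, Nlrp5, Oog1, Oosp1, Oosp2, Zar1 and Zp2, which include the zona pellucida gene Zp2 and the oocyte transcription factors Figla and Lhx8. The 3 at or above 1 TPM in every tumour were Tle6 at 22.6, 68.2 and 36.4 TPM, Kit at 18.5, 4.05 and 12.8 TPM and Gdf9, an oocyte growth factor, at 2.24, 2.73 and 2.69 TPM. Ooep was at 15.9, 0 and 10.02 TPM, with no counts in tumour 2. The summed level of the list was 61.7, 75.5 and 65.4 TPM, most of it from Tle6 and Kit in each tumour.

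The surface of the ovary is covered by an epithelium that expresses keratins, uroplakins and mesothelin. In tumours 1 and 3 the 18 listed genes summed to 2996 and 1368 TPM, and in tumour 2 to 12.4 TPM. Krt19 was at 545, 0.15 and 122.99 TPM, Krt7 at 307, 0.2 and 82.2 TPM, Krt8 at 133, 0.05 and 87.8 TPM and Krt18 at 273, 0.6 and 143 TPM. Each was at or under 0.6 TPM in tumour 2, where Krt19 rested on 1 count. The bladder membrane proteins Upk3b and Upk1b were at 213, 0.03 and 69.0 TPM and at 143, 0.05 and 131 TPM, and Lgals7, a galectin, at 516, 3.39 and 274 TPM. Aldh1a2, which makes retinoic acid, was at 337, 2.33 and 157 TPM, Epcam, an epithelial adhesion protein, at 105, 0.78 and 77.9 TPM, and Msln, mesothelin, at 39.1, 0.75 and 16.0 TPM. Lgr5, a Wnt-responsive receptor, was at 30.8, 0.33 and 21.3 TPM, Muc16 at 16.7, 0 and 13.6 TPM and the cadherin Cdh1 at 13.7, 0.31 and 10.3 TPM. All 13 members with a mean of 10 TPM were variable and low in tumour 2, and Krt19 was the 1 member whose values in tumours 1 and 3 also differed by a ratio of at least 4. With either alternative scaling 12 members kept a mean of 10 TPM and all 12 were variable and low in tumour 2. Itln1 was at 0 in all 3. Wt1 belongs to this list and to the granulosa list, and the part that surface epithelium has in its level was not tested.

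Stromal and matrix genes were abundant, with 23 of 24 at 1 TPM or more in all 3 tumours and 11 among the 1000 most abundant genes. Sparc was at a mean of 1177 ± 27.0 TPM (SD, n = 3) and a ratio of 1.05, steady in TPM and just over the limit with TMM and DESeq2 scaling. Bgn, the proteoglycan biglycan, was at 398, 1059.7 and 432 TPM, highest in tumour 2, and Dcn, decorin, at 517, 84.0 and 878 TPM, lowest there. Col1a2 at 755, 108 and 672 TPM and Col1a1 at 149.7, 35.1 and 219 TPM, the chains of type I collagen, and Lum, lumican, at 422, 93.5 and 380.4 TPM were low in tumour 2. Col6a2 was at 402, 42.3 and 184 TPM and Ogn at 145, 27.3 and 139 TPM, with the same order. Vim, the intermediate filament of mesenchymal and granulosa cells, was at 433, 346 and 453 TPM. Fn1, fibronectin, went the other way, at 12.2, 297 and 24.1 TPM. Of 21 members with a mean of 10 TPM, 11 were variable, 10 of them low in tumour 2, or 7 with TMM and 6 with DESeq2 scaling. Type IV collagen, which builds the basement membrane around follicles, was closer together, with Col4a1 at 243, 249 and 312 TPM and Col4a2 at 143, 149.6 and 169 TPM, while Col4a5 was at 38.6, 5.21 and 57.1 TPM and Col4a6 at 12.9, 0.8 and 10.8 TPM. Lama2 was at 84.2, 16.1 and 52.4 TPM.

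The smooth muscle and pericyte list had its highest sum in tumour 3 and its lowest in tumour 2, where 12 of 14 members were lowest and 1 was highest. Acta2, smooth muscle actin, was at 196, 118 and 367 TPM, Tagln at 113, 45.8 and 297 TPM, Myh11, the smooth muscle myosin, at 18.5, 6.57 and 70.8 TPM and Cnn1 at 9.34, 3.40 and 33.8 TPM. The list of 14 summed to 548, 305 and 1146 TPM. Endothelial genes were present at a low level, 17 of 18 at 1 TPM or more in all 3. None of the 8 members with a mean of 10 TPM was variable. Cdh5, the cadherin of vessel walls, was at 29.7, 61.0 and 57.5 TPM, Pecam1 at 14.8, 40.2 and 18.0 TPM, Eng at 55.0, 25.98 and 30.8 TPM and Esam at 67.5, 19.6 and 39.4 TPM. Summed, the endothelial list was at 327, 270 and 281 TPM.

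Macrophage genes reached 1 TPM in all 3 tumours for 16 of 18 members. Lyz2, lysozyme, was at 64.1, 241 and 102 TPM, and the complement genes C1qa and C1qb at 40.02, 68.2 and 48.5 TPM and at 36.8, 91.9 and 45.4 TPM. Tumour 2 was the highest for each of these and for 11 of the 18 members, and the lowest for 5, and the list summed to 271, 594 and 336 TPM. Lymphocyte genes were near the limit. Only Igkc, Ltb and Cd4 reached 1 TPM in all 3, Igkc, an antibody light chain, at 10.1, 21.99 and 4.83 TPM, and the list summed to 25.2, 30.2 and 18.7 TPM. Of 12 mast cell and granulocyte genes 9 stayed under 1 TPM in all 3, and S100a9 was at 2.13, 15.4 and 1.41 TPM. Red blood cell genes were highest in tumour 2, where the 9 members summed to 2027 TPM, against 353 TPM in tumour 1 and 152 TPM in tumour 3. Hba-a2 was at 132, 751 and 44.9 TPM and Hbb-bs at 116, 685 and 42.7 TPM, and the haemoglobin copies may share reads. Tumour 2, with the lowest summed level of the surface epithelium list, was also the highest for 8 of 9 red blood cell genes. It had the highest summed level of macrophage genes as well. The share of all genes highest in tumour 2 was not counted, and the part of red blood cells or macrophages in its other differences was not tested. Of 12 adipocyte genes 4 reached 1 TPM in all 3, led by the nuclear receptor Pparg at 41.8, 22.9 and 45.6 TPM and the lipase Lipe at 21.7, 8.33 and 19.6 TPM, while the secreted proteins Adipoq, Cfd, Lep and Retn were at 0 in all 3. Among neuronal and Schwann cell genes Uchl1 was at 11.67, 790.0 and 34.2 TPM and Mbp, a myelin protein, at 35.3, 1.93 and 19.8 TPM, while Nefm, Sox10 and Th were at 0 in all 3. Oviduct and ciliated epithelium genes stayed under 1 TPM in all 3 for 7 of 11 members.

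**Figure D4:**
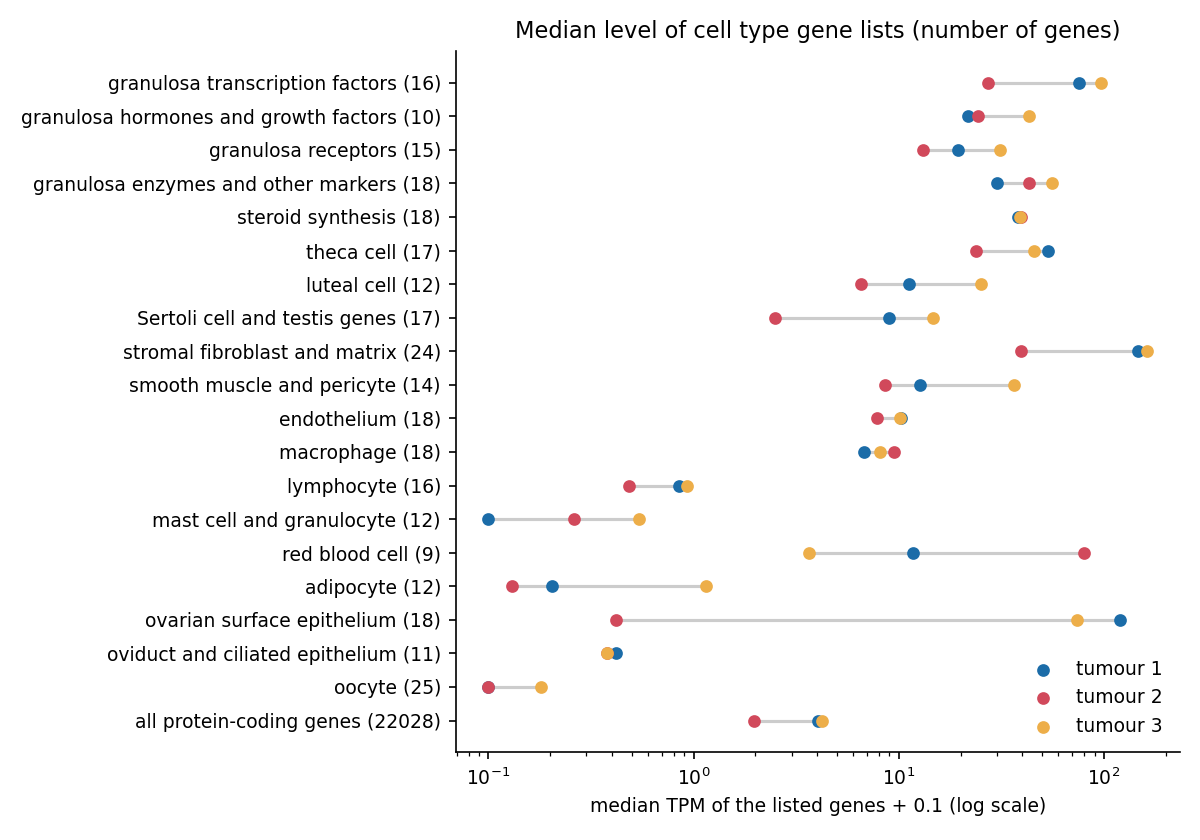
Median TPM of the genes of 19 cell type lists and of all protein-coding genes, plus 0.1 TPM, on a log axis, with a point per tumour and the number of genes in parentheses. Granulosa, steroid, theca and stromal lists lie to the right of the median of all protein-coding genes in each tumour. So do the luteal, Sertoli, smooth muscle, endothelium and macrophage lists, so this position is not particular to granulosa cells. Oocyte genes lie at the left edge, and the surface epithelium list spans from 0.320 TPM in tumour 2 to 119 TPM in tumour 1.

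Among 372 genes of the transcription factor families examined, 208 reached 1 TPM in all 3 tumours. Tsc22d1 was the highest, followed by Ybx1, a cold shock domain protein, at 617, 686 and 629.8 TPM, and by Nfe2l1, a stress regulator, at 334, 199 and 266 TPM. Jund, of the AP-1 family, was at 227, 319 and 213 TPM and Thra, a thyroid hormone receptor, at 211, 174 and 142 TPM. Xbp1, of the unfolded protein response, was at 128, 167 and 150.4 TPM, and Sox4 at 111, 78.7 and 189 TPM. These did not vary by a ratio of 4. Crem, a cAMP-responsive regulator, was at 17.2, 281 and 40.9 TPM and Heyl, a target of Notch signalling, at 7.27, 266 and 46.5 TPM, and both were highest in tumour 2. Of the 164 family members with a mean of 10 TPM, 18 (10.98%) were steady and 42 (25.6%) variable, against 12.6% and 10.8% of all genes. Of the 42, 36 were low in tumour 2. With TMM scaling 37 were variable and 30 low in tumour 2, and with DESeq2 scaling 37 and 29.

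In the TGF-beta, activin and BMP list 27 of 30 members reached 1 TPM in all 3 tumours. The transducer Smad4, which all these ligands share, was at 71.2, 45.7 and 69.2 TPM, and Id3, a target of BMP signalling, at 164, 161 and 97.1 TPM. Tgfb3, a ligand, was at 78.1, 10.7 and 40.1 TPM and Tgfbr1, a receptor, at 35.7, 14.8 and 74.6 TPM. Of 21 members with a mean of 10 TPM, 5 were variable, 2 of them low in tumour 2, or 1 with either alternative scaling.

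Of 24 Wnt pathway genes 18 reached 1 TPM in all 3 tumours and all 24 did in tumours 1 and 3. Ctnnb1, the transducer beta-catenin, was at 393, 277 and 607 TPM. The ligands Wnt6 at 121, 4 and 95.04 TPM, Wnt4, which directs ovarian development, at 29.1, 2.54 and 125 TPM and Wnt5a at 34.5, 4.02 and 34.2 TPM were low in tumour 2, as were the enhancer Rspo1 at 52.4, 0.06 and 25.9 TPM and the antagonist Sfrp1 at 60.5, 5.98 and 131 TPM. The feedback regulators Rnf43 at 9.44, 0 and 8.40 TPM and Znrf3 at 7.20, 1.88 and 11.6 TPM were lowest in tumour 2 as well. Dkk3 at 57.4, 91.4 and 70.1 TPM and Sfrp4 completed the 6 most abundant together with Ctnnb1, Wnt6, Sfrp1 and Wnt4. Of 19 members with a mean of 10 TPM, 9 were variable, all low in tumour 2, and the count was 9 with both alternative scalings. Between tumours 1 and 3 only Wnt4 differed by a ratio of 4 among these. Lgr5 is also on the surface epithelium list, which summed to 12.4 TPM in tumour 2, and the part of those cells in the Wnt values was not tested.

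The Hippo-YAP list was led by Ccn2, a matrix protein and YAP target, at 172, 114 and 171 TPM, and by the receptor Axl at 195, 71.8 and 185 TPM. Yap1 itself was at 71.3, 42.6 and 83.0 TPM. Ccn1 at 29.5, 3.61 and 33.4 TPM and Amotl2 at 49.2, 9.16 and 42.7 TPM were the 2 variable members, both low in tumour 2, of 13 with a mean of 10 TPM. In the Notch list Hes1 was at 59.9, 34.4 and 48.9 TPM and the receptor Notch2 at 27.7, 24.6 and 31.2 TPM, and Heyl was the 1 variable member. Among immediate early genes of the MAPK pathway Jun was at 98.4, 88.9 and 89.0 TPM and Egr1 at 64.6, 20.6 and 48.6 TPM. Spry2 at 27.6, 5.04 and 19.4 TPM and Etv5 at 18.7, 4.24 and 13.6 TPM, feedback regulator and target of the pathway, were variable and low in tumour 2. With either scaling Spry2 was and Etv5 was not, with ratios of 3.63 and 3.54.

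A list of genes that have been reported in human granulosa cell tumours had 16 of 19 measured members at 1 TPM or more in all 3. Beside Inha, Gata4, Wt1, Foxl2, Nr5a1 and Inhbb, it held Cd24a, a surface glycoprotein, at 10.5, 247 and 20.2 TPM and Hmga2, a chromatin protein of the embryo, at 10.9, 1.39 and 7.72 TPM. Igf2 was at 1.76, 0.31 and 3.48 TPM and Calb2, calretinin, at 0, 0.3 and 0.22 TPM. Of 13 members with a mean of 10 TPM, 6 were variable, also with either alternative scaling, and 2 were steady in TPM and 0 with either scaling.

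All 27 cell cycle genes reached 1 TPM in all 3 tumours. Pcna, the sliding clamp of DNA replication, was at 82.0, 103 and 69.7 TPM, the mitotic kinase Cdk1 at 27.5, 66.9 and 32.9 TPM and Top2a, a topoisomerase of dividing cells, at 17.7, 41.8 and 22.6 TPM. Tumour 2 was the highest for 21 of the 27 genes, but the share of all genes highest there was not counted. Only Cenpf, a kinetochore protein, at 27.4, 1.96 and 7.39 TPM, was variable among the 15 with a mean of 10 TPM. For Cenpf tumour 1 was the highest. Ccne2, a cyclin of the entry into S phase, was at 1.80, 9.86 and 3.57 TPM. The proliferation marker Mki67, named after its values were seen, was at 6.65, 8.30 and 6.78 TPM. Cdk4, the kinase of the G1 phase, was at 487, 514 and 509 TPM, a mean of 503 ± 14.4 TPM (SD, n = 3), steady in TPM only, and its partner Ccnd2, the cyclin D of granulosa cells, was at 77.2, 88.5 and 91.9 TPM. Cdkn1b, the inhibitor p27, was the 1 variable member of that list in TPM at 48.1, 18.7 and 108 TPM, and Cdkn2a was at 15.3, 27.4 and 8.23 TPM, named after its values were seen. None of 11 p53 target and apoptosis genes with a mean of 10 TPM was variable. Bax, a promoter of apoptosis, was at 75.2, 131 and 100 TPM and Trp53 at 97.9, 62.8 and 93.5 TPM.

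Lists of general cell function held steady genes in TPM, and fewer with TMM and DESeq2 scaling, under which the count over all genes rose to 1498 and 1555. The counts were 3 and 2 for glycolysis, 3 and 2 for heat shock and protein folding, 2 and 2 for lysosomal genes, 3 and 3 for the cytoskeleton and 3 and 3 for the reference list. In TPM, for glycolysis 5 of 16 members with a mean of 10 TPM were steady and none variable, with Pkm, pyruvate kinase, at 455, 402 and 374 TPM and Eno1, enolase, at 239.9, 215 and 212 TPM. In the list of heat shock and protein folding 5 of 19 were steady and 2 variable, the stress-induced Hspa1a at 1.91, 25.8 and 6.46 TPM and Hspa1b at 6.96, 52.3 and 13.9 TPM, near-identical copies that may share reads and were both highest in tumour 2. Lysosomal genes had 4 steady members of 17, with Ctsd, the protease cathepsin D, at 444, 553 and 465 TPM, and 1 variable, Ctsh, at 138, 22.4 and 173 TPM. Cytoskeletal genes had 5 steady members of 19, with Myl6, a myosin light chain, at 1684, 1732 and 1406 TPM and Tmsb10, a thymosin that binds actin, at 944, 987 and 907 TPM. Of the glutathione and oxidative stress genes, Gstm1, a glutathione transferase, was at 1365, 614 and 947 TPM, Sod1, superoxide dismutase, at 1016, 1378 and 834 TPM and Mgst1 at 859, 542 and 573 TPM. In the reference list 5 of 17 were steady in TPM, while Rpl13a at 3739, 7578 and 3603 TPM and Rplp0 at 2262, 4292 and 1990.4 TPM were highest in tumour 2.

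Over all 9194 genes with a mean of 10 TPM the median ratio of highest to lowest was 1.80, and the middle 50% lay between 1.41 and 2.51. The median coefficient of variation was 29.5%, against 3.83% from counting alone. edgeR's common biological coefficient of variation over 13115 genes was 0.413. Tumours 1 and 3 differed by a median ratio of 1.19, tumours 1 and 2 by 1.59 and tumours 2 and 3 by 1.62. A ratio of 4 was reached by 102 genes between tumours 1 and 3, by 772 between 1 and 2 and by 771 between 2 and 3.

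Which genes were steady depended on the scaling. Of the 1155 genes steady in TPM, 659 were steady with TMM and 506 with DESeq2 scaling. The 1155 genes had a median mean of 53.1 TPM and 1116 of them were protein coding. In 182 of the steady genes the coefficient of variation was under the one that counting error alone gives. Among genes with a mean of at least 50 TPM, the narrowest ratios were those of Phb2, a prohibitin of the inner mitochondrial membrane, at 187, 186 and 186 TPM, a ratio of 1.01, of Wsb2 at 107, 108 and 108 TPM and of Pdcd5 at 127, 126 and 126 TPM. Next came Tsen34, of the tRNA splicing enzyme, at 139.6, 142 and 142 TPM, Snrpd1, a core protein of the spliceosome, at 92.7, 94.2 and 93.4 TPM, and Brk1, of the actin-regulating WAVE complex, at 189, 187 and 189.8 TPM. Tcf25 was at 121, 122 and 119 TPM, Arf1, a GTPase of Golgi traffic, at 352, 343 and 351 TPM and P4ha1, a collagen prolyl hydroxylase, at 72.2, 74.0 and 72.7 TPM. Copz1, of the Golgi vesicle coat, was at 108, 105 and 106 TPM, Prmt1, an arginine methyltransferase, at 354, 351 and 361 TPM and Hmgn2, a nucleosome-binding protein, at 237, 243 and 236 TPM. The remaining 8 of the 20 narrowest were Mrpl41, Gps1, Eif3b, Nsmce1, Slc25a23, Atp5g1, Chmp5 and Ube2m, with ratios from 1.03 to 1.04. All 20 were steady with TMM scaling and 5 with DESeq2 scaling, where Phb2 had a ratio of 1.27.

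**Figure D5:**
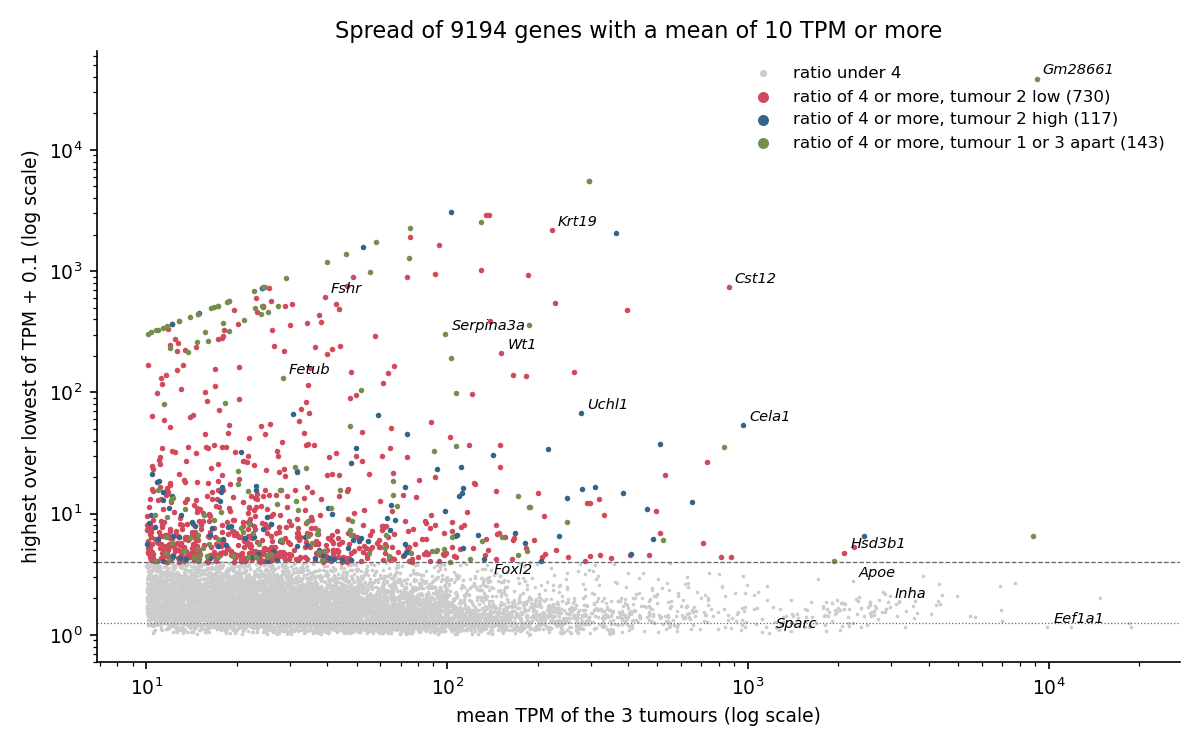
Ratio of the highest to the lowest of the 3 TPM values, each plus 0.1 (log scale, vertical axis), against the mean TPM (log scale, horizontal axis) for 9194 genes, with the thresholds for variable (dashed) and steady (dotted) genes. Of 990 genes above the upper line, 730 had their low value in tumour 2 and 117 their high value there.

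Of the 990 variable genes, 730 (73.7%) were low in tumour 2, 117 (11.8%) high in tumour 2, 58 high in tumour 3, 33 low in tumour 1, 30 low in tumour 3 and 22 high in tumour 1. Scaling moved this split. With TMM factors 514 of 814 (63.1%) were low in tumour 2 and 149 (18.3%) high there, and with DESeq2 size factors 475 of 788 (60.3%) and 168 (21.3%). These factors move tumour 2 up by a median of 0.17 and 0.21 on the log2 scale. Without tumour 2, 114 genes were variable. Among list members with a mean of 10 TPM, a ratio of 4 between tumours 1 and 3 was reached by 2 each of the granulosa hormone, granulosa enzyme and steroid lists, and by 0 of the granulosa receptor, Sertoli, theca, stromal, smooth muscle and red blood cell lists. The genes low in tumour 2 were long, with a median length of 3119 bases against 2311 for all genes with a mean of 10 TPM, and made up 13.8% of genes over 4 kb and 4.98% of genes under 1 kb.

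The 12 named genes furthest below the others in tumour 2, with a mean of at least 20 TPM, included 5 of the surface epithelium list, Krt19, Upk3b, Krt7, Upk1b and Krt8. The others were Klk1, a kallikrein protease, at 111, 0 and 293 TPM, Wfdc10, of the whey acidic protein family, at 129.5, 0.36 and 429 TPM, Pitx1, a homeobox gene of the hind limb and pituitary, at 56.7, 0 and 89.7 TPM, Sectm1b at 75.9, 0 and 63.9 TPM, Cst12, Fshr and Gng13, a G protein gamma subunit, at 420.1, 0.67 and 263 TPM. Klk1, Pitx1, Sectm1b and Fshr had no count in tumour 2. Genes of both epithelial and granulosa or Sertoli lists were thus in this group.

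The genes highest in tumour 2 were led by Uchl1, a ubiquitin hydrolase of neurons and germ cells, at 11.67, 790.0 and 34.2 TPM, a ratio of 67.1. Cntfr, a cytokine receptor, stood at 89.2 TPM in tumour 2 and 1.67 TPM in tumour 3, with its lowest value in tumour 1, and Slc38a1, a glutamine transporter, at 2.49, 169 and 4.44 TPM. Cela1, rank 143 of all genes by its mean, was at 49.5, 2684 and 159 TPM, from 444, 23978 and 967 counts. Ihh, Indian hedgehog, which granulosa cells send to the theca, was at 4.36, 202 and 14.7 TPM. Eya2, a transcriptional cofactor, was at 8.39, 137 and 3.84 TPM, Mia at 17.8, 605 and 28.1 TPM and Enc1 at 11.71, 359 and 57.0 TPM. Camk2n2, an inhibitor of a calmodulin kinase, was at 1.71, 58.4 and 1.90 TPM and Kcne4, a potassium channel subunit, at 4.76, 128 and 11.1 TPM. In 9 of these 10 genes the order was tumour 2, then 3, then 1, the exception being Eya2. The ribosomal pseudogene Rps2-ps10 was at 43.7, 1445 and 38.7 TPM, and its reads may belong to its parent gene.

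Fewer genes set tumour 3 or tumour 1 apart. High in tumour 3 were Fetub, a secreted protease inhibitor, at 3.76, 0.52 and 80.9 TPM, a ratio of 131, Cst8, a cystatin, at 24.3, 6.35 and 102 TPM, Alad, of haem synthesis, at 173, 60.9 and 519 TPM and Galnt6, a glycosyltransferase, at 5.80, 11.3 and 44.8 TPM. The smooth muscle genes Myh11, Actg2 and Tagln, the steroid enzyme Hsd17b1 and the integrin Itga6 were among these 12 as well. Low in tumour 1 were Serpina3a, a serine protease inhibitor, at 0.65, 67.1 and 228 TPM, a ratio of 304, Heyl, Cyp19a1, Nap1l5, Creb3l3 at 2.93, 46.1 and 16.2 TPM, the phospholipase Pla1a at 4.26, 55.0 and 35.4 TPM, Nat8f3 at 4.46, 54.8 and 22 TPM and Fam20c, a kinase of secreted proteins, at 33.0, 373 and 159 TPM. Inhba was among these 12 as well. High in tumour 1 were Pik3ip1, an inhibitor of PI3 kinase, at 149, 12.8 and 42.9 TPM, Mkx, a homeobox gene of tendon, at 50.9, 6.12 and 8.99 TPM and Tex14 at 73.0, 30 and 14.7 TPM. Low in tumour 3 were Rnase1, a secreted ribonuclease, at 52.7, 88.3 and 1.58 TPM, Rimklb at 50.9, 113 and 21.7 TPM, Cyp17a1 and Derl3, of protein quality control, at 82.2, 120.0 and 25.3 TPM.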

How the data were processed

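RNA of dissected ovaries was extracted with Trizol and made into libraries with a stranded TruSeq mRNA kit, per the labels' protocols. The tools listed, per the submitters' processing notes, are RSEM 1.3.1, STAR 2.7.1a, Picard 2.8.1 and FastQC, with GRCm38 as the build and no role or order given. The strand setting is unknown here. Per the file headers, each deposited table gives the authors' expected count, TPM and FPKM per gene. TPM was used as deposited, expected counts were rounded to whole numbers for edgeR 4.0.16 and DESeq2 1.42.0 (R 4.3.3), and FPKM served as an alternative unit. All 55536 gene identifiers were found in GENCODE M21.

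A gene was present at 1 TPM in all 3 tumours. Spread was the ratio of highest to lowest TPM + 0.1. edgeR's dispersion was fitted without shrinkage and tested on simulated data. No test between groups was made. Named genes were Foxl2, the 30 most abundant, the 6 highest of each list and its members below 0.1 TPM in all 3 or with a ratio of at least 4, the 20 highest transcription factors, the 20 steadiest with a mean of at least 50 TPM, and the 12 most variable per pattern with a mean of at least 20 TPM. Members and lists were chosen with earlier results of these data known. Alternatives were scaling, unit, pseudocount, filters, mitochondrial genes and leaving out each library. Some genes that this rule names are not reported here.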

Additional observations from a re-analysis of the deposited data

How the results depend on the processing

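Of 74 recomputations of counts and shares, 60 stayed within 1.5 times the reported count or 1 SD of the reported share. With CPM, which is not divided by gene length, the 10 most abundant genes held 5.93% and the 100 most abundant 18.99%, and 56 of the 100 were shared. Without mitochondrial genes the 10 most abundant held 8.92%. With the authors' FPKM 612 genes were variable, and with DESeq2 size factors 475 variable genes were low in tumour 2. The cause was not tested. A mean of at least 50 TPM, which admits fewer genes, left 606 steady and 245 variable genes, and a mean of at least 1 TPM gave 2771 variable genes. With 1 tumour left out in turn, which leaves 2 values a gene, steady genes numbered 2194 to 5746 and variable genes 114 to 711. edgeR's common biological coefficient of variation was 0.229 to 0.481. The lower ends for variable genes and for this coefficient were those without tumour 2. Of 451 genes in the highest 5% by ratio, 328 were also above the 95th percentile of edgeR's coefficient. Of 680 genes of the lists and rankings with a mean of 10 TPM, the mean moved by over 1.5 times for 48, 60 and 51 genes without tumour 1, 2 and 3. Without tumour 2 the mean of Cela1 was 104 TPM against 964 TPM, and that of Uchl1 22.9 TPM against 279 TPM.

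No paired analysis was possible because a single group was described and nothing was compared between groups. With 3 libraries, low levels are limited by counting, and the alternatives on genes low in tumour 2 and the calls of single genes under scaling were chosen after seeing the data.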

Other observations

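Gene lists not described above gave the following values. Among 20 imprinted genes, expressed from 1 parental copy, 11 reached 1 TPM in all 3 tumours. Nnat, neuronatin, was at 106, 1154 and 129.7 TPM, with tumour 2 the highest. Peg10, a retrotransposon-derived gene, was at 25.6, 2.92 and 40.3 TPM and lowest in tumour 2. Of 10 members with a mean of 10 TPM, 4 were variable, 3 of them low in tumour 2, and with either alternative scaling 5, with 3 low there.

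Among 16 interferon response genes 13 reached 1 TPM in all 3. Bst2, the membrane protein tetherin, was at 651, 746 and 355 TPM and Ifi27 at 248, 163 and 250.04 TPM. Oasl2 at 68.4, 10.7 and 41.7 TPM and the guanylate-binding proteins Gbp2 at 69.9, 4.55 and 32.3 TPM and Gbp3 at 23.1, 3.61 and 9.30 TPM were the 3 variable members, each highest in tumour 1 and lowest in tumour 2. All 3 were variable with either scaling. In the hypoxia list 14 of 15 measured members reached 1 TPM in all 3, and Aldoa, an aldolase of glycolysis, led it at 981, 765 and 998 TPM.

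Among adhesion genes Itgb1, an integrin beta chain, was at 278, 263 and 348 TPM, Itga6, an integrin of laminin binding, at 133, 70.8 and 351 TPM and the cadherin Cdh11 at 78.3, 12.4 and 91.0 TPM. Cdh2, N-cadherin, was steady at 26.5, 22.4 and 26.4 TPM. Of the junction genes with a mean of 10 TPM, 3 of 12 were variable and low in tumour 2, among them Jup, plakoglobin, at 105, 19.5 and 53.4 TPM.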
